A study of Mus musculus with 50 samples.

Results

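Chromatin accessibility of hippocampal neurons was compared between mice that had grown up in RF2 and mice that had grown up in RF4, after both had been moved to the same test laboratory. The libraries were taken by their labels as RF2 or RF4 at TP2, which gave 5 RF2 and 5 RF4 libraries of the 50 in the series, and all 144465 merged peaks were considered. The study allocated time-mated dams to 5 rearing facilities (RFs), and the male C57BL/6JRj offspring were killed either at 8 weeks of age, still in their RF (TP1), or, as littermates moved to the test laboratory and kept there without behavioural testing, at 14 weeks (TP2). RF2 kept its mice in individually ventilated cages on a normal light cycle with autoclaved bedding, water and enrichment, whereas RF4 kept them in open cages on a reversed light cycle with untreated tap water and another bedding wood. The test laboratory used open cages and a reversed cycle for all mice. These conditions differ together, so their parts in any difference cannot be told apart. NeuN-positive nuclei were sorted from the ventral hippocampus of 1 side, and each library comes from 1 mouse by its label. The comparison asks how much of a rearing-facility difference is seen in the chromatin of mice that have since shared housing.

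ATAC-seq uses a transposase that cuts and tags DNA where nucleosomes leave it exposed, so the number of tagged fragments in a peak measures how open that stretch of chromatin is across the nuclei of a library. Promoters of active genes and distal enhancers are open, and most of the DNA between genes is closed. Gene-rich parts of chromosomes tend to be open and early-replicating, while gene-poor parts tend to lie in compact chromatin. Bulk nuclei of many neuron types were pooled in each library, so a change in the mix of neuron types and a change within 1 type cannot be told apart. A differentially accessible region (DAR) is here a merged peak whose log2 fold change was 0.5 or more in either direction, with a Benjamini-Hochberg adjusted p under 0.01 in edgeR's quasi-likelihood test. Fold changes are RF2 over RF4.

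Promoters of 8 genes whose peaks are described below are printed here so that the accessible sequence can be seen beside its values. Each runs from 250 bases before to 50 bases after the start, 300 bases in all, on the strand of the gene, from RefSeq on GRCm38.p6. Capitals mark matches to 6 short motifs searched on both strands, which were the TATA box (TATAAA), the CCAAT box (CCAAT), the histone octamer (ATTTGCAT), the E-box (CACGTG), the cAMP response element or CRE (TGACGTCA) and the AP-1 site (TGANTCA). The first 3 are promoters of histone genes on chromosome 13, the next 3 belong to other peaks that were higher in RF2, and the last 2 to peaks that were lower in RF2.
H3c11 (chr13:21783348-21783647, minus strand): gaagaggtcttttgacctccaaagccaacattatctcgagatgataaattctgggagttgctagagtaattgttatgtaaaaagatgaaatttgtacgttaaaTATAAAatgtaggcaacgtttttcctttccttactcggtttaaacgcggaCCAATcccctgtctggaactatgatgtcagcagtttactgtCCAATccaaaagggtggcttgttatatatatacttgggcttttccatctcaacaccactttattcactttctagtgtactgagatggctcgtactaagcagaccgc
H2bc22 (chr13:21787238-21787537, plus strand): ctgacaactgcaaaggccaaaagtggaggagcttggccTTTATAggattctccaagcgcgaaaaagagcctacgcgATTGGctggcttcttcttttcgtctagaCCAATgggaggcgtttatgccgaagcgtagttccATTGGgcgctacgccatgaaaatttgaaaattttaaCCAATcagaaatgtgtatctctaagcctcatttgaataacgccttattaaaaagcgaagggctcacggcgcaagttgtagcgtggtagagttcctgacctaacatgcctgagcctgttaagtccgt
H2bc14 (chr13:21721794-21722093, plus strand): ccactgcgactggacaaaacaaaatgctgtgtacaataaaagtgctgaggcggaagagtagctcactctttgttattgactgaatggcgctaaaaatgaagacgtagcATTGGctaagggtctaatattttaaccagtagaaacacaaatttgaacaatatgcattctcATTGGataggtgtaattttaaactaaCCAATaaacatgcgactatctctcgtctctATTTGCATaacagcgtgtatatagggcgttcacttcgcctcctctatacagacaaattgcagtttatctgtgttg
Commd3 (chr2:18672185-18672484, plus strand): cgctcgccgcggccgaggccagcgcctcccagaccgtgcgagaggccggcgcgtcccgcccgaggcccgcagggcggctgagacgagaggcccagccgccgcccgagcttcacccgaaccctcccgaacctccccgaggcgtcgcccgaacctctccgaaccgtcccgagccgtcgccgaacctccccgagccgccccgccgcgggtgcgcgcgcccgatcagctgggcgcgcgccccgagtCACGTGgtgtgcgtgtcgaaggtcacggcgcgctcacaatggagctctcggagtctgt
Lsm6 (chr8:78821103-78821402, minus strand): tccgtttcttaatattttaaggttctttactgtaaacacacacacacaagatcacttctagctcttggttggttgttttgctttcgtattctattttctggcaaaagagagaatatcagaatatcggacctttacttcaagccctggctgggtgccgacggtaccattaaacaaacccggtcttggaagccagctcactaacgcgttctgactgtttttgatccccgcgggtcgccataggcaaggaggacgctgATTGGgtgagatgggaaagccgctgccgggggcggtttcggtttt
Larp7 (chr3:127553300-127553599, minus strand): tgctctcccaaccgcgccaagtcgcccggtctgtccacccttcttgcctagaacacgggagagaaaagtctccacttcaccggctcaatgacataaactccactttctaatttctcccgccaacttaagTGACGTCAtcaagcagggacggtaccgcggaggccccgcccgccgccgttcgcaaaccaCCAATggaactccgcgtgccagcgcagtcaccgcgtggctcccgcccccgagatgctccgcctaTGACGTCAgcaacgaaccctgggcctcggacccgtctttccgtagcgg
Il20ra (chr10:19712337-19712636, plus strand): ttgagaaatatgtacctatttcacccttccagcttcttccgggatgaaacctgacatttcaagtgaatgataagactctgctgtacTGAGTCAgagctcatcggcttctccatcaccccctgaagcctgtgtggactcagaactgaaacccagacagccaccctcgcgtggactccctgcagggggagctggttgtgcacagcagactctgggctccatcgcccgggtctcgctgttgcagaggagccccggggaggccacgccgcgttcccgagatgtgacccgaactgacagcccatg
Plk1 (chr7:122159185-122159484, plus strand): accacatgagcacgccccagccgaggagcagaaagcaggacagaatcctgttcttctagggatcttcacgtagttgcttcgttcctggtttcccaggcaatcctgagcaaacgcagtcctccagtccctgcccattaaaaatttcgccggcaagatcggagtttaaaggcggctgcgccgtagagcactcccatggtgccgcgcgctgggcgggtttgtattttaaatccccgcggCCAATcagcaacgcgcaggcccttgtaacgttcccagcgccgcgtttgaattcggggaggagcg

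The libraries of the 2 groups were not equally independent. Over peaks of middling depth, RF2 replicates 1 to 4 differed from each other by 0.99 to 1.02 times the variance that sampling alone gives, and the RF4 libraries by 1.00 to 1.13 times. The library labelled RF2 replicate 5 stood apart from the other 4 at 2.42 to 4.16 times the sampling variance, and lay 1.01 to 1.19 times from the 5 libraries labelled RF5 and 1.01 times from the library labelled RF1 replicate 5. The library labelled RF1 replicate 3 lay 0.97 to 1.00 times from RF2 replicates 1 to 4. These 3 libraries thus go against their labels, which were kept as given, and an exchange of labels was not tested. RF2 replicates 1 to 4 lay 1.70 to 2.93 times from the RF4 libraries and RF2 replicate 5 lay 4.57 to 6.44 times from them. The main results are therefore also given without RF2 replicate 5. Libraries whose counts agreed within sampling noise were counted once in each mean ± SD (RF2 replicates 1 and 2, RF2 replicates 3 and 4, and RF4 replicates 2, 3 and 5), which leaves n = 3 for each RF. Total counts were 7287029 to 26085195 in RF2 and 20022610 to 33572236 in RF4, with RF2 replicate 3 the shallowest. All 6 neuronal and all 8 astrocyte marker genes had a promoter peak, as did 6 of 10 oligodendrocyte, 5 of 8 microglial and 3 of 6 endothelial marker genes.

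At TP2, 1382 of 144449 tested peaks were DARs (0.957%). Most were more open in RF2, with 1040 higher (0.72%) and 342 lower (0.237%). Without RF2 replicate 5 there were 1795 DARs (1.24%), of which 1243 were higher (0.861%) and 552 lower (0.382%). Of the 1382, 1068 were called in the same direction without that library, which is 77.3%. Leaving out 1 library at a time gave 691 (without RF2 replicate 2) to 1795 DARs, with 869 without RF2 replicate 1, 771 without RF2 replicate 4, 763 without RF4 replicate 3, 799 without RF4 replicate 4 and 825 without RF4 replicate 5. In 1091 of the 1382 all RF2 libraries lay to 1 side of all RF4 libraries, which also held for 7.12% of all tested peaks. These calls rest on treating libraries that agree within sampling noise as separate mice. When such libraries were summed, leaving 3 RF2 and 3 RF4 samples among those fitted, 6 peaks were DARs, all 6 higher in RF2, and 22006 peaks had an unadjusted p under 0.05. With sums, and with RF2 replicate 5 and the 2 RF1 libraries named above also left aside, 2202 peaks were DARs. In that fit RF2 consisted of 2 samples, the sum of replicates 1 and 2 and the sum of replicates 3 and 4. As RF2 replicates 1 to 4 differ by 0.99 to 1.02 times the sampling variance, the spread between these sums is close to sampling noise.

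The peaks that were higher and lower in RF2 lay in different kinds of chromatin. Of the 1040 higher DARs, 75.7% lay outside genes, 16.8% inside genes and 7.5% within 2 kb of a gene start. Of the 342 lower DARs, 43.3% lay outside genes, 49.1% inside genes and 7.6% at gene starts, against 35.1%, 52.9% and 12% of all tested peaks. Higher DARs outside genes were a median of 179374 bp from the nearest protein-coding gene, against 28078 bp for lower DARs and 47747 bp for all tested peaks outside genes. The median number of genes in the 1 Mb bin of a peak was 3 for higher DARs, 13 for lower DARs and 7 for all tested peaks. Without RF2 replicate 5 the median was 3 for higher and 10 for lower DARs.

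The median difference was graded over gene density. Among the 5449 peaks in bins without any protein-coding gene the median log2 fold change was 0.23, and 3.84% were higher DARs against 0.092% lower. In bins with 1 to 2 genes the median was 0.09, and in bins with 3 to 5 genes it was 0.06. In bins with 11 to 20 genes the median was -0.06, and in bins with more than 20 genes it was -0.09. Higher DARs made up 0.174% of peaks in bins with 11 to 20 genes and lower DARs 0.388%. The called shares were not graded throughout, since bins with more than 20 genes had 0.417% higher DARs and 0.376% lower. The 82 higher DARs of these bins include 26, 6 and 21 in the bins at 21, 22 and 23 Mb of chromosome 13, which hold histone genes. The median over all tested peaks was 0.00. The step between the emptiest bins and the fullest was also present without RF2 replicate 5, where the medians were 0.24 and -0.07.

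**Figure D1:**
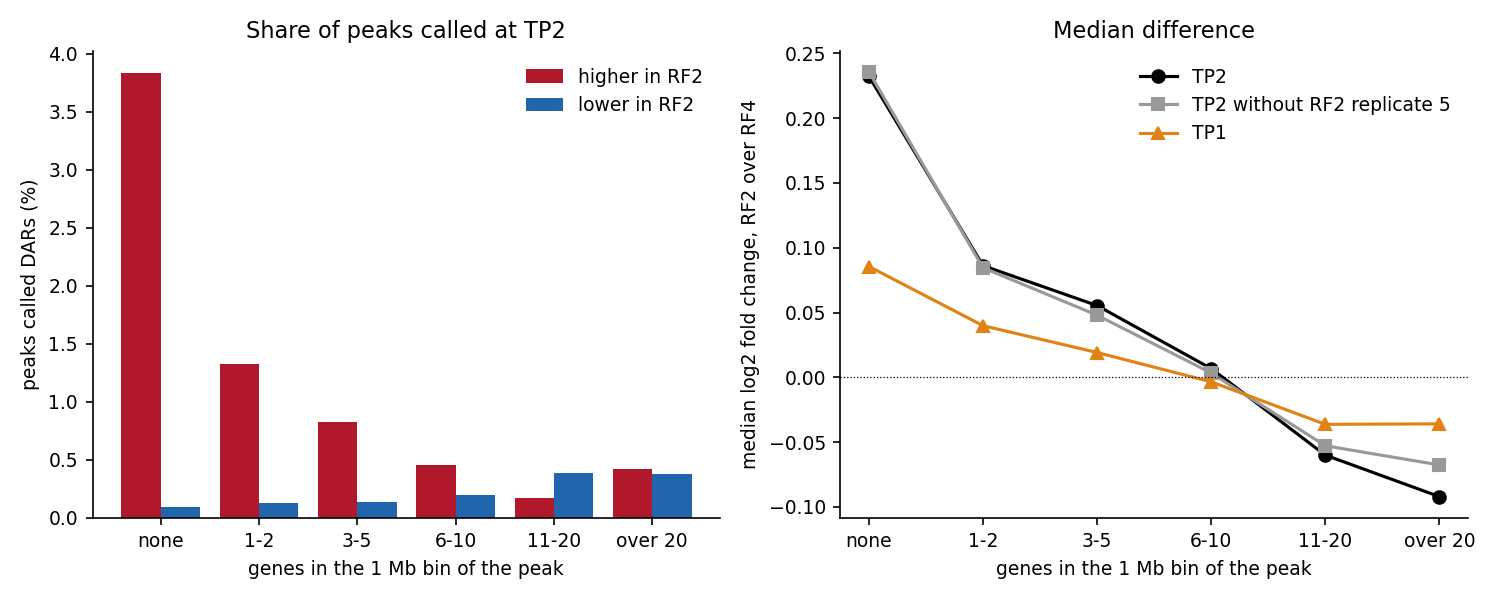
Peaks grouped by the number of protein-coding genes in their 1 Mb bin. Left, bars give the percentage of tested peaks called DARs at TP2, higher in RF2 (red) or lower in RF2 (blue); right, points give the median log2 fold change of RF2 over RF4 at TP2, at TP2 without RF2 replicate 5, and at TP1. The share of higher DARs is 3.84% in bins without a gene, 0.174% in bins with 11 to 20 genes and 0.417% in bins with more than 20.

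The share of all counts that fell into each kind of region was compared between RF2 and RF4 without calls on single peaks. Peaks in gene-free bins took 1.99% to 2.03% of the counts of the RF2 libraries, against 1.76% to 1.82% in RF4, and the groups did not overlap (exact permutation test, two-sided p = 0.0079 with 5 libraries each, adjusted p = 0.0099 over 5 such shares). Bins with more than 20 genes took 20.02% to 21.996% of counts in RF2, against 22.03% to 22.39% in RF4 (exact p = 0.0079, adjusted p = 0.0099). Here RF2 replicate 5 was the lowest at 20.02%, and the other 4 RF2 libraries lay between 21.77% and 21.996%. The X chromosome took 1.25% to 1.39% in RF2, against 1.138% to 1.177% in RF4 (exact p = 0.0079, adjusted p = 0.0099), with 1.39% in RF2 replicate 5. Peaks at gene starts took 33.2% in RF2, against 32.5% in RF4, as means of the 5 libraries (exact p = 0.0079, adjusted p = 0.0099). Peaks outside genes took 24.4% in RF2, against 23.8% in RF4 (means of 5, exact p = 0.016, adjusted p = 0.016). All 5 differences kept their direction and an exact p under 0.05 whichever of the 10 libraries was left out. The value of 0.0079 is the smallest that 5 libraries against 5 can give, and counting libraries within sampling noise once, 3 against 3, the smallest would be 0.1.

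Chromosomes differed in the direction of their DARs. Chromosome X had 47 higher DARs and 0 lower among 2305 tested peaks (median log2 fold change 0.19), and 45 higher and 0 lower without RF2 replicate 5. Chromosome 7 had 0 higher and 49 lower among 7699 peaks (median -0.14), and 4 higher and 51 lower without that library. Chromosome 13 had 111 higher and 4 lower among 6578 peaks. Of these higher DARs, 26, 6 and 21 lay in the 1 Mb bins at 21, 22 and 23 Mb, which hold histone genes. Chromosome 3 had 108 higher and 2 lower among 8013 peaks, and chromosome 1 had 103 higher and 10 lower among 10741. Chromosome 11 had 18 higher and 51 lower among 9026 peaks. Chromosome 9 had 10 higher and 32 lower among 7867, and chromosome 17 had 11 higher and 31 lower among 5236. The median log2 fold change was below 0 on all 4 chromosomes with more lower than higher DARs. Of the 16 with more higher DARs, it was above 0 on 10 and below 0 on 6, which were chromosomes 2, 4, 5, 8, 16 and 19.

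**Figure D2:**
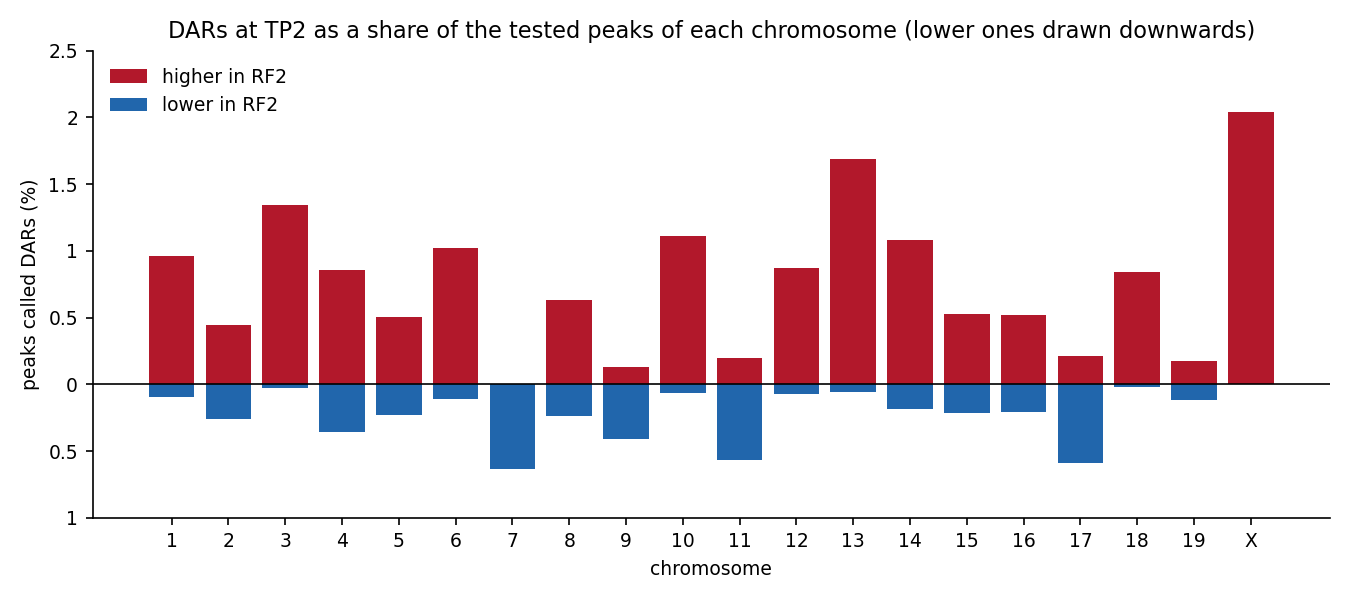
DARs at TP2 as a percentage of the tested peaks on each chromosome, with DARs higher in RF2 drawn upwards (red) and DARs lower in RF2 drawn downwards (blue). Chromosome X has 47 higher and 0 lower DARs, and chromosome 7 has 0 higher and 49 lower.

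Within chromosomes, neighbouring peaks shifted together. Among 1 Mb bins with at least 15 peaks, the bin starting at 55 Mb of chromosome 10, a gene desert between Tbc1d32 and Man1a, had the highest mean log2 fold change at 0.60 over its 17 peaks. Accessibility is given as CPM, the part of a library's counts in a peak scaled to 1000000 counts. The summed accessibility of this bin was 35.0, 35.2, 37.6, 33.0 and 33.4 CPM in RF2 replicates 1 to 5, against 24.5, 24.4, 24.01, 26.1 and 24.8 CPM in RF4. None of its 17 peaks was a DAR by itself, and the groups did not overlap. The next bins lay at 97 Mb of chromosome 8 beside Cdh8 (0.56), 55 Mb of chromosome 5 beside Pcdh7 (0.56), 83 Mb of chromosome 5 beside Epha5 (0.55), 113 Mb of chromosome 3 at Col11a1 (0.53) and 96 Mb of chromosome 14 at Klhl1 (0.52). Cdh8 and Pcdh7 encode cadherins of neuronal cell adhesion, and Epha5 an ephrin receptor of axon guidance.

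At the other end, the bin at 36 Mb of chromosome 7, which holds the zinc finger gene Tshz3, had a mean of -0.40 over 42 peaks. It summed to 113, 111, 113, 116 and 124 CPM in RF2, against 143, 156, 144, 142 and 146 CPM in RF4. The bin at 169 Mb of chromosome 2, which holds its relative Tshz2, had -0.34 over 63 peaks. There the sums were 162, 160, 154, 155 and 199 CPM in RF2, against 205, 209, 210, 217 and 211 CPM in RF4, so that RF2 replicate 5 lay close to the RF4 libraries. The bin at 125 Mb of chromosome 4 at Grik3, a kainate receptor subunit gene, had -0.30 over 120 peaks and 10 lower DARs. The bin at 118 Mb of chromosome 11 at Rbfox3, the gene that encodes NeuN, had -0.27 over 165 peaks and 6 lower DARs, with 1713 to 1768 CPM in RF2 against 2009 to 2126 CPM in RF4. NeuN was the protein used to sort the nuclei, while the promoter peak of Rbfox3 was not called (log2 fold change -0.09, edgeR adjusted p = 0.50). These bins are the extremes of all bins and are given as a description.

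Much of the contrast was regional in this sense. When the mean of each 1 Mb region was removed in the fit, 336 DARs were left, 194 higher and 142 lower. Of the 1382 original DARs, 205 (14.8%) were still called, 128 higher and 77 lower. Of the 37 peaks named below, 13 stayed DARs.

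Genes with a promoter DAR were few. Of 15368 protein-coding genes with a promoter peak, 96 had a higher DAR (0.625%) and 26 a lower DAR (0.169%). Without RF2 replicate 5, 99 genes had a higher and 33 a lower promoter DAR, with 75 and 15 genes in both counts. Over all libraries left out 1 at a time there were 66 to 131 genes with a higher and 12 to 33 with a lower promoter DAR. A peak counts as a promoter peak within 2 kb of a gene start, or of either end of a gene whose strand is not given in the reference used.

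Among the named promoters, the lowest adjusted p was at Commd3 on chromosome 2 (peak chr2:18671754-18672950), which encodes a subunit of the complex that recycles membrane proteins from endosomes. Its accessibility was 27.1, 28.0, 29.2, 26.2 and 30.003 CPM in RF2, against 19.2, 16.2, 17.96, 17.6 and 15.9 CPM in RF4. The means were 28.4 ± 1.4 CPM in RF2 and 17.8 ± 1.3 CPM in RF4 (SD, n = 3 each). The log2 fold change was 0.71 ± 0.08 (SE), with an edgeR adjusted p of 4.8e-08, 2.9e-07 without RF2 replicate 5 and 4.4e-08 with the regional mean removed. Lsm6, which encodes a subunit of the ring that binds U6 spliceosomal RNA, was similar (peak chr8:78820463-78822301). It had 14.5, 13.6, 14.3, 13.9 and 17.2 CPM in RF2, against 9.68, 8.93, 8.45, 8.59 and 9.62 CPM in RF4 (log2 fold change 0.71 ± 0.09, edgeR adjusted p = 6.6e-07). Both promoters kept their call whichever library was left out, and neither kept it when libraries within sampling noise were summed (adjusted p = 0.011 and 0.014).

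Promoters of Crh, Nts, Hsd3b2 and S1pr1 were also higher in RF2 than in RF4. Crh encodes corticotropin-releasing hormone, which starts the stress hormone cascade and is also made by hippocampal interneurons. The peak that covers Crh (chr3:19693108-19695128) had 6.43, 6.48, 6.59, 7.69 and 9.03 CPM in RF2, against 5.56, 4.68, 3.98, 3.65 and 4.44 CPM in RF4. All RF2 libraries lay above all RF4 libraries, with RF2 replicate 5 the highest (log2 fold change 0.71 ± 0.13, edgeR adjusted p = 0.00037, and 0.003 without that library). Nts encodes the peptide neurotensin, and its promoter had 3.00, 2.45, 2.20, 3.19 and 3.03 CPM in RF2, against 1.49, 1.97, 1.58, 1.65 and 1.13 CPM in RF4 (log2 fold change 0.88 ± 0.19, edgeR adjusted p = 0.0024). Hsd3b2 encodes a 3-beta-hydroxysteroid dehydrogenase of steroid hormone synthesis. Its promoter had 6.04, 4.64, 4.53, 5.80 and 4.88 CPM in RF2, against 3.85, 3.50, 2.32, 2.90 and 2.86 CPM in RF4 (log2 fold change 0.78 ± 0.16, edgeR adjusted p = 0.0013). The peak at S1pr1, a receptor for the lipid sphingosine-1-phosphate, was higher by 0.76 ± 0.19 (adjusted p = 0.0072), with 2.20 to 3.53 CPM in RF2 against 1.199 to 2.15 CPM in RF4. Crh kept its call whichever library was left out. With the regional mean removed, Hsd3b2 stayed a DAR and the calls were lost at Crh (log2 fold change 0.42, edgeR adjusted p = 0.022), Nts (0.53, adjusted p = 0.083) and S1pr1 (0.49, adjusted p = 0.13). The call was lost at Nts without RF2 replicate 1 (edgeR adjusted p = 0.011), RF2 replicate 4 (0.015) or RF4 replicate 5 (0.031), and at Hsd3b2 without RF2 replicate 4 (0.012) or RF4 replicate 3 (0.012). At S1pr1 it was lost without any 1 of RF2 replicates 1, 2 and 4 and RF4 replicates 1, 2, 4 and 5 (adjusted p = 0.014 to 0.053). For Crh and S1pr1 the strand is not given in the reference used, so that the peak may lie at either end of the gene. Of the promoters described below, the same holds for Dsg1a, Csnk1d, Htr3a, Msmb, Mat1a, Sdr42e1, Plec, Gpihbp1, C1qtnf1 and Ttr.

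The other named promoters that were higher in RF2 were those of Isl1 (log2 fold change 0.70), a LIM homeodomain transcription factor gene, S100a11 (0.78), a calcium-binding protein gene, the neighbours Tmem176a and Tmem176b (0.79), Dsg1a (1.00), a desmosomal cadherin gene, and 2 histone promoters described below. The calls at Isl1 and at Tmem176a and Tmem176b were lost without RF2 replicate 5 (edgeR adjusted p = 0.011 and 0.012). At Dsg1a the RF2 libraries had 1.19 to 2.47 CPM against 0.669 to 1.34 CPM in RF4, and RF2 replicate 5 lay within the RF4 range. Other libraries also decided these 4 calls. Each was lost without RF2 replicate 4, RF4 replicate 3 or RF4 replicate 4, except that Isl1 was kept without RF2 replicate 4. Isl1, S100a11 and Dsg1a were lost without RF2 replicate 1, Isl1 and S100a11 without RF4 replicate 5, and Dsg1a without RF2 replicates 2 or 3 or RF4 replicates 1 or 2, with edgeR adjusted p of 0.011 to 0.04 in all these cases. With the regional mean removed only the Tmem176a and Tmem176b peak of these 4 stayed a DAR (adjusted p = 0.0035, against 0.11 at Isl1, 0.046 at S100a11 and 0.026 at Dsg1a), and the Dsg1a call was also lost without the replicate number in the fit (0.016).

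Among the lower promoters, Il20ra, a receptor subunit gene for cytokines of the interleukin-20 family, had the lowest adjusted p (peak chr10:19712200-19713344). It had 1.83, 1.73, 0.961, 1.64 and 1.88 CPM in RF2, against 3.98, 2.79, 2.80, 4.20 and 3.49 CPM in RF4. RF2 was lower in every library, which the choice of named promoters required of RF2 replicates 1 to 4. The log2 fold change was -1.03 ± 0.18 (edgeR adjusted p = 8.9e-05, 0.00014 without RF2 replicate 5 and 4.8e-06 with the regional mean removed). Plk1 encodes polo-like kinase, which drives mitosis. Its promoter (peak chr7:122158437-122159946) had 6.51, 6.44, 4.12, 4.74 and 7.18 CPM in RF2, against 9.02, 10.1, 9.55, 8.24 and 9.23 CPM in RF4 (log2 fold change -0.60 ± 0.12, edgeR adjusted p = 0.00075). The RF2 values did not reach those of RF4, and RF2 replicate 5 was the closest to them. The call at Plk1 was kept without that library (log2 fold change -0.73) and lost without RF2 replicate 4 (edgeR adjusted p = 0.011), whereas Il20ra was called whichever library was left out. The Plk1 call was lost with the regional mean removed (log2 fold change -0.41, adjusted p = 0.017).

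The peak near Csnk1d, the casein kinase gene whose product phosphorylates the PER clock proteins, had 4.05, 4.56, 2.88, 4.54 and 4.42 CPM in RF2, against 4.95, 6.22, 7.31, 7.69 and 6.82 CPM in RF4 (log2 fold change -0.64 ± 0.14, edgeR adjusted p = 0.0019). This peak lies inside the neighbouring gene Slc16a3, and so may belong to either gene. At Htr3a, the gene of a serotonin-gated ion channel, RF2 had 3.12, 3.80, 4.94, 3.72 and 5.03 CPM, against 6.00, 5.39, 6.91, 7.09 and 6.46 CPM in RF4 (log2 fold change -0.66 ± 0.14, edgeR adjusted p = 0.0019). The calls at Csnk1d and Htr3a were kept without RF2 replicate 5 (edgeR adjusted p = 0.0053 and 0.0017). The Csnk1d call was lost without RF4 replicate 3 (edgeR adjusted p = 0.015) or RF4 replicate 4 (0.018), and the Htr3a call without any 1 of RF2 replicates 1, 2 and 4 and RF4 replicates 3 and 4 (0.011 to 0.019). Both calls were lost with the regional mean removed (adjusted p = 0.025 at Csnk1d and 0.017 at Htr3a). At Msmb, which encodes a secreted protein of the prostate, the difference was -0.91 ± 0.16 (adjusted p = 0.00011), with 1.499 to 2.68 CPM in RF2 against 3.80 to 4.38 CPM in RF4.

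The remaining named lower promoters were Mat1a (log2 fold change -1.06), Bpifa3 (-1.03), Sdr42e1 (-0.80), Plec (-0.75), Aebp1 (-0.75), Gpihbp1 (-0.65) and C1qtnf1 (-0.63). Mat1a makes the methyl donor S-adenosylmethionine in liver, plectin (Plec) links cytoskeletal filaments, and Gpihbp1 holds lipoprotein lipase on capillaries. Of these 7, only Mat1a and Bpifa3 were still called without RF2 replicate 5. Mat1a lost its call without any 1 of the other libraries except RF4 replicate 3 (edgeR adjusted p = 0.012 to 0.039), and Bpifa3 without RF2 replicates 1 or 4 or RF4 replicates 2 or 3 (0.013 to 0.024). The C1qtnf1 call was lost whichever library was left out, and the calls at Sdr42e1, Plec, Aebp1 and Gpihbp1 without any 1 of 7 to 9 of the 10 libraries. With the regional mean removed only Mat1a of the 7 stayed a DAR (edgeR adjusted p = 0.0022, against 0.013 to 0.11 at the others), and with a loess offset C1qtnf1 was lost (0.012). For Bpifa3 DESeq2 gave no adjusted p. No named peak was a DAR in the fit that summed libraries within sampling noise, where the adjusted p of the 37 named peaks ran from 0.011 to 0.12. With sums, and with RF2 replicate 5 and RF1 replicates 3 and 5 left aside, 33 of the 37 were DARs and 4 were not. That fit was chosen after the data were seen, and RF2 had only 2 samples in it, whose spread is close to sampling noise.

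**Figure D3:**
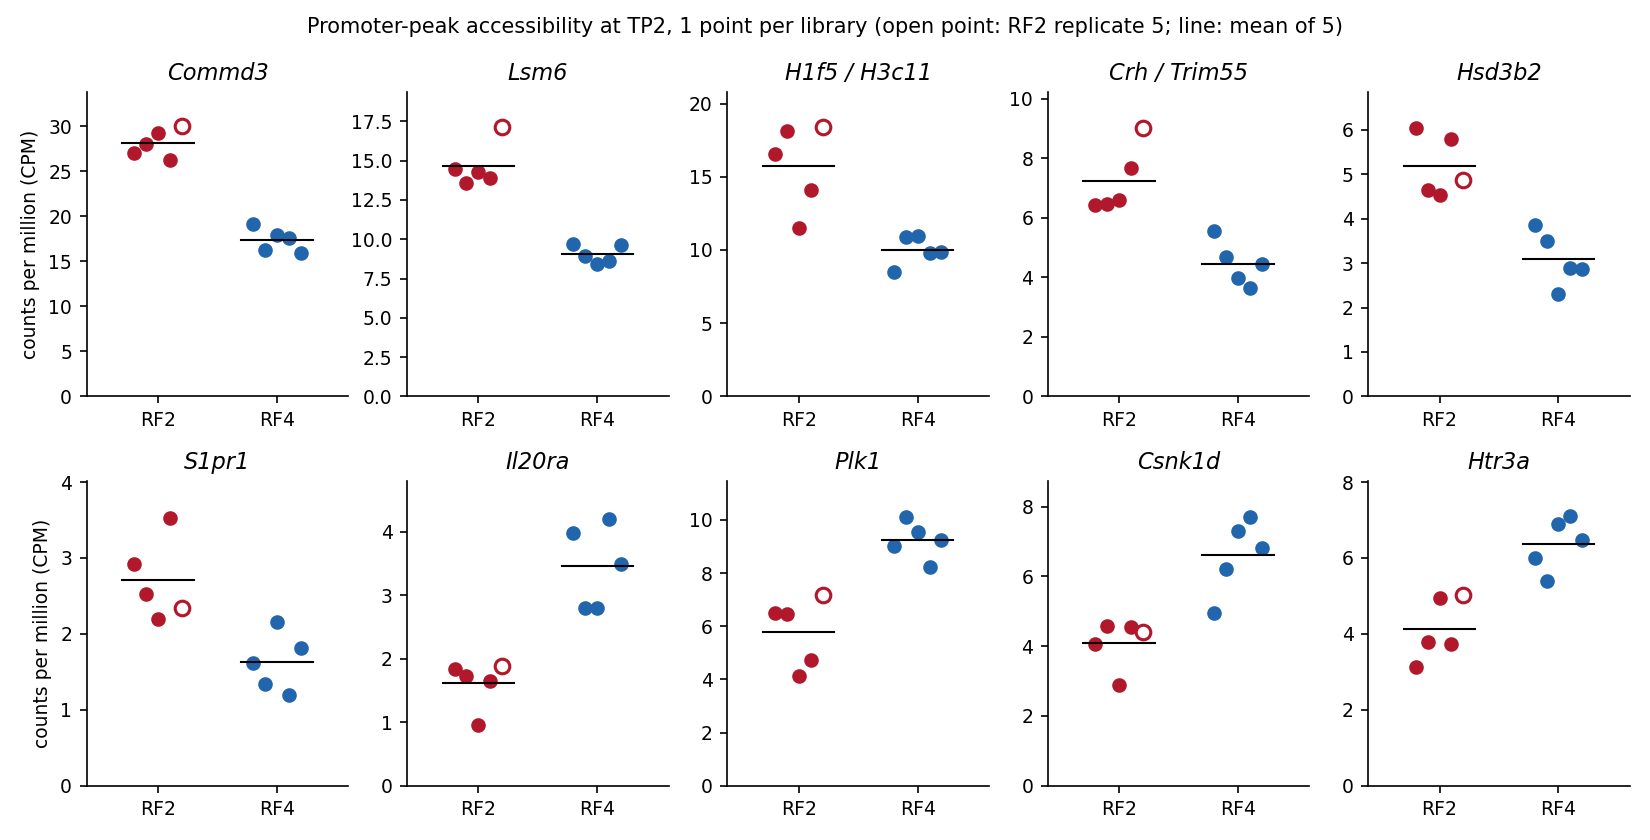
Accessibility in CPM at 10 promoter peaks in the 5 RF2 and 5 RF4 libraries at TP2, each point a library, the open point RF2 replicate 5 and the line the mean of the 5. Commd3 has 26.2 to 30.003 CPM in RF2 against 15.9 to 19.2 CPM in RF4, and Plk1 4.12 to 7.18 CPM in RF2 against 8.24 to 10.1 CPM in RF4.

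Peaks were also named at any position by the size of their change, among those with at least 1 CPM in RF2 or RF4 and with RF4 apart from RF2 replicates 1 to 4. An intragenic peak of Gja1, the connexin 43 gene of astrocyte gap junctions, had 0.818, 1.34, 3.02, 1.21 and 1.31 CPM in RF2, against 0.175, 0.511, 0.609, 0.350 and 0.298 CPM in RF4 (log2 fold change 1.86 ± 0.32, edgeR adjusted p = 7.8e-05). The promoter peak of the same gene, with 2.42 to 4.48 CPM in RF2 against 1.99 to 3.15 CPM in RF4, was not called (log2 fold change 0.35, adjusted p = 0.21). The summed promoter accessibility of 8 astrocyte marker genes was 66.7 to 71.8 CPM in RF2 replicates 1 to 4 and 57.6 CPM in RF2 replicate 5, against 57.8 to 62.3 CPM in RF4. Of these genes, Slc1a3, which encodes a glutamate transporter, was higher by 0.47 (adjusted p = 0.00015), just under the fold limit of a DAR. The part of astrocyte chromatin in the Gja1 difference was not tested. Peaks inside Lrp1b, an LDL-receptor-related gene (1.68), and Stk26, a kinase gene on chromosome X (1.59), and peaks nearest to Ear1 (1.54) and Gm725 (1.52) were also higher. At Lrp1b RF2 replicate 5 had 0.307 CPM, within the RF4 range of 0.157 to 0.599 CPM. The Lrp1b call was lost without RF2 replicates 1, 2 or 4 or RF4 replicates 1, 2 or 3 (edgeR adjusted p up to 0.017), and the Gm725 call without RF2 replicate 2 (0.011) or RF4 replicate 3 (0.014). The calls at Stk26 (adjusted p = 0.012), Ear1 (0.043) and Gm725 (0.013) were lost with the regional mean removed. DESeq2 gave these 5 peaks no adjusted p.

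In the other direction, a peak inside Grm4, the gene of the presynaptic glutamate receptor mGlu4, had 1.32, 1.38, 0.961, 1.31 and 1.11 CPM in RF2, against 2.71, 2.48, 2.56, 3.10 and 2.53 CPM in RF4 (log2 fold change -1.08 ± 0.19, edgeR adjusted p = 0.00019). A peak inside Tmem132e had 0.652 to 1.10 CPM in RF2 against 1.55 to 2.38 CPM in RF4 (log2 fold change -1.20 ± 0.22, adjusted p = 0.00032). Both stayed DARs whichever library was left out. The peak near the collagen gene Col19a1 had 9.20, 9.01, 10.3, 9.57 and 2.34 CPM in RF2, against 20.2 to 22.1 CPM in RF4. The value of RF2 replicate 5 lay in the range of the RF5 libraries, 1.69 to 2.70 CPM, and without that library the log2 fold change was -1.20 (adjusted p = 5.9e-06). Fitted on only the 10 RF2 and RF4 libraries, the Col19a1 peak was not called (edgeR adjusted p = 0.070). Peaks inside Cfap46 (-1.08) and near Cybrd1 (-1.23) completed the named ones. Cfap46 lost its call without any 1 library except RF2 replicate 2 and RF4 replicate 2 (edgeR adjusted p up to 0.027), and Cybrd1 without RF2 replicates 2 or 4 or RF4 replicates 2 or 3 (0.011 to 0.027). With the regional mean removed Cfap46 was lost (0.043) and the other 4 stayed DARs, and DESeq2 gave Cfap46 and Cybrd1 no adjusted p.

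Few genes of the chosen pathways had a promoter DAR. Over 16 lists of clock, activity, stress, synaptic and signalling genes, 385 of 394 genes had a promoter peak, of which 2 were higher (Nr4a2 and Crh) and 3 lower (Csnk1d, Htr3a and Syt2), or 1.299% against 0.794% of all genes. Nr4a2, an immediate early gene that encodes an orphan nuclear receptor, had 8.75 to 10.9 CPM in RF2 against 5.09 to 7.84 CPM in RF4 (log2 fold change 0.55 ± 0.11, edgeR adjusted p = 0.0014). Syt2, which encodes a calcium sensor of fast transmitter release, had 4.01 to 5.75 CPM in RF2 against 5.48 to 8.22 CPM in RF4 (log2 fold change -0.51 ± 0.12, adjusted p = 0.0059, and 0.023 without RF2 replicate 5). The Syt2 call was also lost without RF2 replicate 1 or RF4 replicates 1, 2, 4 or 5 (0.013 to 0.047), and the Nr4a2 call without RF2 replicate 1 (0.012), RF4 replicate 4 (0.015) or RF4 replicate 5 (0.012). Both were lost with the regional mean removed (0.028 at Syt2 and 0.061 at Nr4a2), and Syt2 with a loess offset, where its fold change was -0.50. With RF2 replicate 5 and the 2 RF1 libraries left aside the log2 fold changes were -0.44 at Syt2 and 0.46 at Nr4a2, under the limit of a DAR. The lists of glutamate receptors (24 genes with a promoter peak), GABA receptors and synthesis (20), postsynaptic scaffold and adhesion (27) and chromatin regulators (39) had 0 called genes with either set of libraries.

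The summed levels of some lists lay apart by small amounts. The 22 clock genes summed to 1214 to 1237 CPM over their promoters in RF2, against 1110 to 1161 CPM in RF4, and 19 of the 22 had a positive log2 fold change, with a median of 0.16 against 0.03 over all genes. Only Csnk1d of the 22 was called, and it was lower. The 21 immediate early genes summed to 1325 to 1382 CPM in RF2, against 1206 to 1246 CPM in RF4, with 19 of 21 positive and a median of 0.13. The 17 dopamine signalling genes with a promoter peak summed to 380 to 394 CPM in RF2, against 398 to 414 CPM in RF4, with 6 positive and 11 negative and a median of -0.10. Sums that did not overlap between RF2 and RF4 were found in 8 of the 16 lists, 7 of them higher in RF2, and so are not particular to these 3.

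Marker genes of cell types were looked at in the same way, since NeuN sorting should leave neurons. Of 103 marker genes, 87 had a promoter peak, and 3 were higher (Nts, Isl1 and Ttr) and 0 lower, or 3.45% against 0.794% of all genes. Without RF2 replicate 5, Isl1 was no longer called. Ttr, the transthyretin gene of the choroid plexus, had 7.40 to 9.20 CPM in RF2 against 5.63 to 6.79 CPM in RF4 (log2 fold change 0.51 ± 0.10, edgeR adjusted p = 0.00072). Its log2 fold change fell under the DAR limit of 0.5 without RF2 replicates 2 or 3 or RF4 replicates 2 or 3, and its call was lost with the regional mean removed (adjusted p = 0.03). Of the other 5 ependymal and choroid plexus markers, 2 had a promoter peak and neither was called, and the summed level of the list was 50.6 to 57.6 CPM in RF2 and 50.8 to 57.6 CPM in RF4. Interneuron markers summed to 119 to 128 CPM in RF2 against 107 to 113 CPM in RF4, with 11 of 12 positive and 0 called. Markers of dentate granule cells summed to 85.4 to 107 CPM in RF2 against 77.3 to 82.7 CPM in RF4, with 5 of 7 positive and 0 called. The 107 CPM was RF2 replicate 5, and RF2 replicates 1 to 4 had 85.4 to 91.3 CPM. Calb1 stood out among these markers (log2 fold change 0.49, edgeR adjusted p = 6.6e-05), and the others had an adjusted p of 0.11 or more. With all 5 RF2 libraries, these were the only 2 of the 15 marker lists whose sums did not overlap between RF2 and RF4. With RF2 replicate 5 left aside, 3 more lists lay apart, all higher in RF2. Astrocyte markers had 66.7 to 71.8 CPM in RF2 against 57.8 to 62.3 CPM in RF4. Oligodendrocyte markers had 47.6 to 49.8 CPM against 42.5 to 45.9 CPM, and thalamic markers 23.03 to 23.88 CPM against 18.3 to 22.79 CPM. Markers of ventral hippocampal pyramidal cells had a median of 0.20 with 6 of 6 positive, and those of cortical neurons a median of 0.21 with 5 of 6 positive. The part of these shifts in the DARs was not tested.

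The histone genes of chromosome 13 formed a block of promoters higher in RF2, and were chosen for description after their values were seen. Replication-dependent histone genes supply the histones of S phase and lie in clusters of near-identical copies, so reads of single copies may be uncertain. The chromosome 13 cluster holds 51 histone genes between 21714875 and 23764071, with 32 promoter peaks. Of these, 13 were higher DARs (40.6%, against 0.72% of all tested peaks and 0.376% of the other promoter peaks) and 0 were lower, 14 were higher without RF2 replicate 5, and all 32 log2 fold changes were positive, from 0.16 to 0.75 with a median of 0.50. Leaving out 1 library at a time left 13 to 17 of the 32 as higher DARs and 0 as lower. The 32 peaks summed to 774, 772, 782, 783 and 871 CPM in RF2, against 575, 578, 580, 556 and 570 CPM in RF4. RF2 replicate 5 was the highest, and no RF2 library came near the RF4 range.

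The promoter of H2bc22 and H2ac22 had 18.2, 17.9, 17.6, 18.4 and 19.9 CPM in RF2, against 11.8, 11.6, 11.05, 11.3 and 9.86 CPM in RF4 (log2 fold change 0.75 ± 0.11, edgeR adjusted p = 7.7e-05). The promoter of H3c11 had 16.5, 18.1, 11.5, 14.1 and 18.4 CPM in RF2, against 8.49, 10.9, 10.9, 9.79 and 9.89 CPM in RF4 (log2 fold change 0.70 ± 0.13, adjusted p = 0.00074), with RF2 replicate 3 the lowest of its group. Peaks between the histone genes were higher as well, so the difference was not particular to the histone promoters. Of 64 other peaks between the first and last histone promoter, 27 were higher DARs (42.2%) and 0 lower. The share at the histone promoters was 40.6%. The median log2 fold change of the other peaks was 0.57, against 0.50 at the histone promoters. Of these 64, 10 lay within 2 kb of the start of another gene, and 1 of the 10 was a DAR. With the regional mean removed, 0 of the histone promoters were called. The smaller histone cluster of chromosome 3 had 6 promoter peaks, 0 called, and a median of 0.13. At TP1, before the move, the median of the chromosome 13 promoters was 0.59, and 24 of the 32 were higher DARs.

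**Figure D4:**
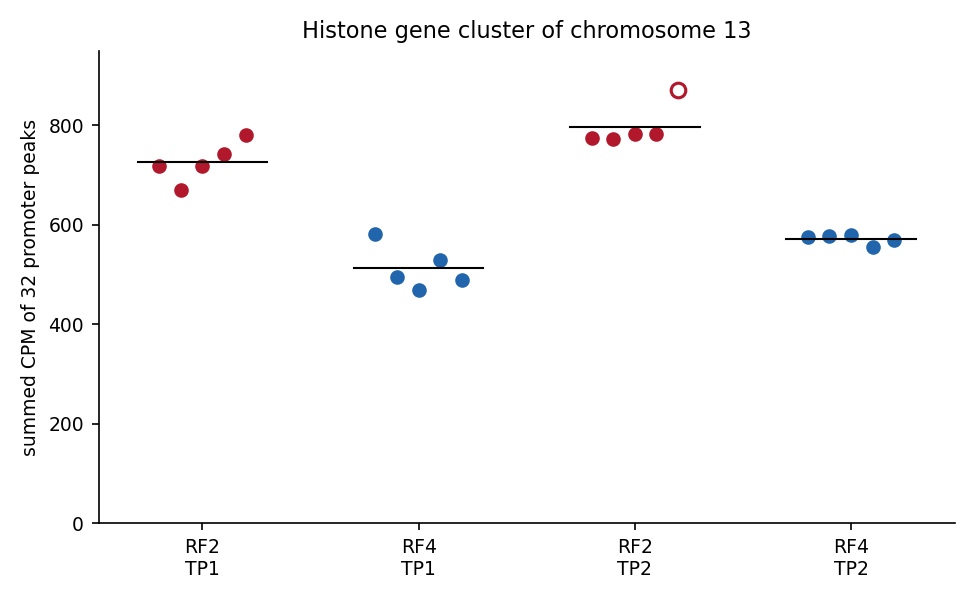
Summed accessibility of the 32 histone promoter peaks of the chromosome 13 cluster in CPM, each point a library and each line the mean of 5, for RF2 and RF4 at TP1 and at TP2 (open point, RF2 replicate 5). At TP2 the RF2 libraries lie between 772 and 871 CPM and the RF4 libraries between 556 and 580 CPM.

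The motifs of promoters in DARs were counted beside these values. RefSeq promoter windows matched 78 genes in higher DARs and 12 in lower DARs, and 17484 promoters overlapped any tested peak. A TATA box match, anywhere in the window on either strand, was found in 23.1% of the promoters in higher DARs. Such a match was in 7.36% of promoters in tested peaks and 13.6% of all 32851 promoters. Of the 20 histone promoters in higher DARs 55.0% had it, against 12.1% of the other 58, and 54.0% of all 63 histone promoters held it whether called or not. The CCAAT box was in 80.0% of those 20 and in 53.8% of the 78, against 36.7% of promoters in tested peaks. The H3c11 promoter above shows both, with the TATA match well upstream of the CCAAT matches, and H2bc14 shows the octamer.

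The CRE was found in 11.5% of the promoters in higher DARs (9 of 78), against 2.78% of promoters in tested peaks. Because divergent genes share peaks, these 9 promoters lie in 6 peaks of the 53 that overlap a RefSeq promoter window, namely those at Cenpw, Magohb, Pot1a, Larp7 with Zgrf1, and 2 histone peaks. The Larp7 promoter, whose peak had a log2 fold change of 0.58 (edgeR adjusted p = 1.2e-07), holds the CRE at 2 places. This gene was chosen for printing after the values were seen. In the 12 promoters of lower DARs the CRE was found once (8.33%), and the AP-1 site in 16.7%, the Il20ra promoter among them, against 5.32% of promoters in tested peaks. These matches describe letters in the windows and were not tested.

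The same contrast before the move had more DARs. At TP1, 4017 peaks differed between RF2 and RF4 (2.78%), 2462 higher (1.7%) and 1555 lower (1.08%), with total counts of 40517766 to 77396321 in RF2 and 33663505 to 51214297 in RF4. TP1 and TP2 were sequenced separately and differ in depth, so age, the move and the sequencing run cannot be told apart. Of the 1382 DARs of TP2, 169 (12.2%) were also DARs at TP1, against 2.78% of all peaks tested there. These 169 were 4.21% of the TP1 DARs, with 145 higher at both TPs, 23 lower at both and 1 opposite. Among DARs higher at TP2, 82.6% (859 of 1040) had a positive log2 fold change at TP1, and among lower ones 83.3% (285 of 342) a negative one, against 61.5% of all peaks with the same sign at both TPs. The median log2 fold change of the higher DARs was 0.67 at TP2 and 0.21 at TP1, and that of the lower DARs was -0.62 at TP2 and -0.19 at TP1.

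Over 1 Mb bins the pattern was shared between TPs. Across 2316 bins with at least 10 peaks, the mean log2 fold change at TP2 and at TP1 had a Spearman correlation of 0.81 and a Pearson correlation of 0.77, and with the number of genes in the bin the Spearman correlation at TP2 was -0.56. Bins are not independent and these values describe them. The histone bins and chromosome X stood high at both TPs, whereas the Tshz2 bin of chromosome 2 had -0.34 at TP2 and -0.00 at TP1. Shares of counts differed between TPs. Peaks outside genes took a smaller share of counts in RF2 than in RF4 at TP1 (22.7% in RF2 and 23.7% in RF4), the opposite of TP2, and this difference between TPs was 1.57 percentage points (exact permutation of RF labels within TP, p = 6.3e-05, adjusted p = 0.00031 over 5 shares). The gene-free bins took 1.68% in RF2 and 1.67% in RF4 at TP1 (exact p = 0.73), and the difference between TPs was 0.226 points (exact p = 0.017, adjusted p = 0.043). Permuting RF labels within TP supposes no difference between RF2 and RF4 at either TP. The p-values of these differences between TPs thus do not test a change between TPs alone. They also count libraries within sampling noise as separate mice.

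**Figure D5:**
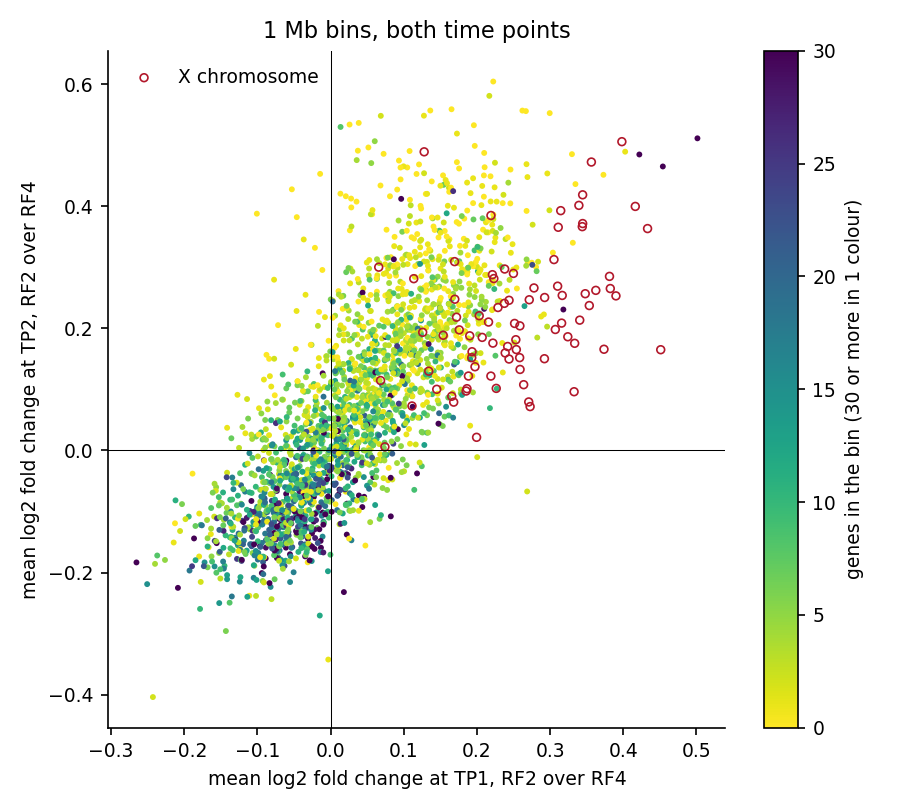
Mean log2 fold change of RF2 over RF4 in 2316 bins of 1 Mb, at TP1 (horizontal) and TP2 (vertical), coloured by the number of protein-coding genes in the bin, with bins of chromosome X as red rings. Bins with few genes lie mostly in the upper part, and the Spearman correlation between TPs is 0.81.

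For single peaks the difference between TPs was tested as an interaction, which passed an adjusted p of 0.01 in 1914 of 144461 peaks (1.32%), 393 positive and 1521 negative. Of the 1382 DARs of TP2, 122 were among them. Without RF2 replicate 5 the interaction passed in 3525 peaks, and without the replicate number in the fit in 893. Of the 37 named peaks 32 had the same sign at TP1 and 9 were DARs there too, among them Commd3 (0.53 at TP1), Lsm6 (0.54), Crh (0.68) and the histone promoters. The interaction passed at 5, which were Hsd3b2, Il20ra, Syt2, Grm4 and Tmem132e. At Hsd3b2 the log2 fold change was 0.78 at TP2 and -0.32 at TP1 (interaction adjusted p = 0.00097), and at Il20ra it was -1.03 at TP2 and 0.08 at TP1 (interaction adjusted p = 0.0011). Il20ra had 2.13 to 2.95 CPM in RF2 against 2.14 to 3.21 CPM in RF4 at TP1, so the groups overlapped there. The largest interaction of all was at a peak nearest to Ndufa4 on chromosome 6 (chr6:10690472-10690885), with 1.13 to 2.15 CPM in RF2 against 0.1998 to 1.19 CPM in RF4 at TP2, and 0.246 to 0.517 CPM in RF2 against 2.42 to 3.68 CPM in RF4 at TP1 (interaction of 3.88, edgeR adjusted p = 3.8e-14). It was not a DAR at TP2 (adjusted p = 0.021), and the order of the group means was reversed between TPs.

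Over all peaks, RF accounted for 24.6% of the variation among the 10 libraries at TP2 (permutational partitioning of Manhattan distances of log2 CPM with a pseudocount of 1, exact permutation test, one-sided p = 0.0079, the smallest that the assignments can give). Without RF2 replicate 5 the share was 28.5% (exact p = 0.0079 over 126 assignments). The share at TP1 was 40.2% (exact p = 0.0079).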

How the data were processed

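ATAC-seq libraries of sorted NeuN-positive nuclei were analysed, 5 from RF2 and 5 from RF4 at TP2, grouped by their labels. Per the authors' methods, reads were trimmed with fastp, aligned with Bowtie2 to the mouse genome (Ensembl annotation on GRCm38), cleared of duplicates with Picard 1.140, and peaks were called per library with MACS2 2.1.4, kept if 3 or more of a group's 5 libraries had them, and pooled over the 10 groups. The authors deposited raw counts per merged peak, which were not normalized. The deposited peak lists give a −log10 q-value per peak, from which only the positions and the number of peaks per library were used here. A deposited table called normalized holds the same numbers and was left out. The authors tested their counts with DESeq2.

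Counts of the 25 TP2 libraries were fitted with edgeR 4.0.16 in R 4.3.3 (TMM, filterByExpr, robust quasi-likelihood test), with RF and the replicate number. The authors fitted processing batch, with 1 sample of each RF per batch. The labels name no batch, and whether the replicate number marks it is not known. A DAR had an adjusted p (Benjamini-Hochberg) under 0.01 and a log2 fold change of 0.5 or more in either direction. TP1 was fitted likewise, and the interaction over all 50 libraries. CPM are counts scaled to a library total of 1000000 counts in peaks. Libraries were taken as within sampling noise at 1.02 times the variance expected if each read pair gave 2 counts, over peaks with 500 to 5000 counts on average. Where more than 1 grouping was possible the closest pairs were joined first. The labels give separate mice, so p-values over libraries may measure technical spread, and summing such libraries was 1 of the alternatives. The others were DESeq2 1.42.0, no filter, no replicate block, only the 10 libraries, a loess offset (limma 3.58.1), removal of 1 Mb means, and leaving out libraries. The test was checked on simulated data.

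Genes are 21887 protein-coding genes of RefSeq on GRCm38.p6, of which 17492 had a strand from the promoter table. Named were the 12 promoter DARs with the largest change in each direction and the 5 at any position in each direction, with at least 1 CPM in RF2 or RF4 and with RF4 apart from RF2 replicates 1 to 4, plus the called members of the gene lists. Names of the Gm or Rik type were left out at promoters. The RF2 and RF4 libraries, members and lists were chosen with earlier results of these data known. Shares of counts were compared by exact permutation tests. Depth differed, and RF2 replicate 3 at 7287029 counts gives the least precise values.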

Additional observations from a re-analysis of the deposited data

Results flagged for a closer look

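Among groups of 5 libraries at TP2, 86 were examined for a library far from the other 4, and 12 stood out at Dixon's critical value of 0.71, where chance gives about 1 in 20. In RF2 these were the Gja1 peak (3.02 CPM in replicate 3), the Gm725 peak (2.61 CPM in replicate 3), the Tmem176a and Tmem176b peak (4.11 CPM in replicate 4), the Lsm6 peak (17.2 CPM in replicate 5), the Il20ra peak (0.961 CPM in replicate 3) and the Col19a1 peak (2.34 CPM in replicate 5). In RF4 the Tmem176a and Tmem176b peak stood out low at 1.299 CPM in replicate 4. RF2 replicate 5 also stood out in the share of counts on chromosome X (1.39%) and in bins with more than 20 genes (20.02%). In RF4 the share at gene starts was 32.3% in replicate 4 and the share in bins with more than 20 genes was 22.03% in replicate 1, each below the others. RF2 replicate 3 stood out by its total of 7287029 counts, and it is the library with the 3 outlying values at Gja1, Gm725 and Il20ra.

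Results that differed between TP2 and TP1 by a test of the difference were the Hsd3b2 peak (log2 difference between TPs 1.09), the Syt2 peak (-0.62), the Il20ra peak (-1.11), the Grm4 peak (-1.12) and the Tmem132e peak (-1.34), with edgeR adjusted p from 0.00097 to 0.0048. Of the 5 shares of counts, 3 had an adjusted p under 0.05 for this difference by exact permutation of RF labels within TP. They were gene-free bins (0.226 percentage points), peaks outside genes (1.57 points) and peaks at gene starts (-2.67 points, exact p = 0.029, adjusted p = 0.048). That permutation supposes no difference between RF2 and RF4 at either TP, so it does not test a change between TPs alone.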

How the results depend on the processing

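The direction of all 37 named peaks was kept under each alternative fit. DESeq2 gave 8 of them no adjusted p, and called the other 29. The number of DARs stayed within 1.5 times of 1382 with DESeq2 (1690), no filter (1378), only the 10 libraries (1492) and a loess offset (1345). It moved further with libraries within sampling noise summed (6, of which 6 higher and 0 lower), with these summed and RF2 replicate 5 left aside (12, 10 higher and 2 lower), with these summed and 3 libraries left aside (2202, 729 lower), with 3 libraries left aside and no sums (3053, 2025 higher and 1028 lower), with 1 Mb means removed (336, 194 higher and 142 lower), with 1 Mb means removed and RF2 replicate 5 left aside (705, 373 higher), and with a log2 fold change of 1 or more in either direction (114, 99 higher and 15 lower). Sums also leave fewer samples, and the cause of these moves was not tested. With sums and RF2 replicate 5 left aside, RF2 had 2 samples (replicates 1 and 2, and replicates 3 and 4). Alternatives that combine sums or region means with libraries left aside were chosen after seeing the data.

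Leaving out 1 library at a time gave 691 to 1795 DARs, 512 to 1243 higher and 179 to 552 lower. The lowest came without RF2 replicate 2 (691), and the count was also under the main one by more than 1.5 times without RF2 replicate 1 (869), RF2 replicate 4 (771), RF4 replicate 3 (763), RF4 replicate 4 (799) or RF4 replicate 5 (825). Promoter genes ran from 66 to 131 higher and from 12 to 33 lower. Of the 37 named peaks, 13 stayed DARs whichever library was left out. At TP1 the range was 3105 to 4341 DARs, with 4199 by DESeq2. The share of variation ran from 24.6% to 28.5%, and was 23.5% with Euclidean distances.

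Replicate numbers did not pair the libraries. The deviations of RF2 and RF4 libraries of the same number correlated at -0.021 to 0.006, and 0 of 5 RF2 libraries were closest to their own number. With no replicate block there were 1333 DARs at TP2 (997 higher and 336 lower), 3774 at TP1 and 893 peaks past the interaction, against 1914 with the block and 3525 without RF2 replicate 5.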
